A study of Homo sapiens with 12 samples.

Results

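The response of the cell-cycle degradation machinery to a CDK4/6 inhibitor and to a degrader of the oestrogen receptor (ER) was followed through the transcripts of 10 genes in CAMA-1 cells: CDC20, FZR1, UBE2C, UBE2S, FBXO5, PTTG1, SKP2, CKS1B, CKS2 and DTL. They were chosen by symbol for their function, with earlier results of these data already known. The choice was out of 60612 rows with a gene name, of which 11803 passed the filter on low counts and were tested. All 10 were among the genes tested. CAMA-1 is an established ER-positive human breast cancer line, labelled wild-type here, and is a single line grown in culture. Cells received DMSO, 100 nM abemaciclib (a CDK4/6 inhibitor), 5 nM fulvestrant (an ER degrader), or a combination of the drugs whose doses the labels do not restate. Each of the 4 groups held 3 biological replicates. Transcripts were read from their 3′ ends, and levels are given as CPM, the share of a library's reads on the usual per-million basis after scaling of library sizes.

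Totals ran from 3299119 to 5164667 counts per library, so that 3 counts corresponded to between 0.568 and 0.888 CPM. The labelled cell type was checked against its markers. All 6 luminal markers were expressed, with GATA3 at 2568 CPM or more and ESR1 at 81.3 CPM or more in every group mean. Their summed level was 5312 to 5630 CPM in DMSO libraries and 6313 to 7264 CPM in treated libraries. The markers did not move together. From DMSO to the combination, group means were higher for GATA3 (3010 to 3669 CPM), KRT19 (1371 to 1957) and FOXA1 (226 to 258). They were lower for KRT18 (520 to 416), KRT8 (268 to 203) and ESR1 (93.0 to 81.3). With abemaciclib GATA3 was at 2568 CPM. The basal markers KRT5, KRT14 and TP63 together reached at most 1.14 CPM. Of 5 stromal, endothelial and leukocyte markers, only COL1A1 and PTPRC held reads: the sum was 14.2 to 18.4 CPM in DMSO and 15.9 to 25.9 CPM in treated libraries, and COL1A2, PECAM1 and CD3E were at 0. The part of these shifts in the results was not tested. Fulvestrant replicate 3 stood apart within its group: its correlation across genes with fulvestrant replicate 2 (r = 0.970) was below that with combination replicate 1 (0.976), while that with fulvestrant replicate 1 was 0.978. Leaving this library out changed no call of the 10 genes. As these are bulk samples, fewer cells in a given phase and less RNA per cell cannot be told apart.

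The anaphase-promoting complex (APC/C) and the SKP1-cullin-F-box ligases (SCF) attach ubiquitin to cell-cycle proteins and so mark them for destruction by the proteasome. APC/C works from mitosis through G1 and is switched on by either of its coactivators, CDC20 in mitosis and FZR1 (also called CDH1) from late mitosis onwards, whereas SCF with the F-box protein SKP2 removes CDK inhibitors as cells enter S phase. A related ligase built on CUL4 uses DTL (also called CDT2) to remove replication-licensing proteins on chromatin. Many of these genes are themselves transcribed periodically, under E2F factors or under the MuvB-containing complexes that act at late cell-cycle promoters.

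Nearly all of the 10 genes were lower under each treatment, and FZR1 was the exception. In cells given abemaciclib, 8 genes fell, FZR1 rose and CKS1B was not called (edgeR, p adjusted by Benjamini-Hochberg over all genes tested, threshold 0.05). Over all genes tested in that comparison, 20.7% were called lower and 20.5% higher. Fulvestrant lowered 9 of the 10, all but FZR1, against a background of 25.7% lower and 25.3% higher. With the combination 9 fell and FZR1 rose, against 27.5% lower and 27.7% higher among all genes. The median log2 fold change of the 10 was -1.54 with abemaciclib, -2.28 with fulvestrant and -3.31 with the combination. The median of all genes was 0.00, 0.01 and 0.01, but the scaling of library sizes itself places it near 0. With scaling by total counts only it was -0.06, -0.05 and -0.002. The share of all calls that were higher then moved from 49.7% to 41.6%, from 49.6% to 44.3% and from 50.2% to 49.3%. These 3 comparisons share the DMSO libraries. Because the 10 genes were chosen with earlier results of these data known, the shares over all genes are no test of them as a set. UBE2S passed the low-count filter only through its DMSO libraries, so it had to be lower elsewhere, and its calls against DMSO are a description only. The falls counted above and the medians of the 10 include UBE2S.

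Differences between the treated groups were graded. Compared with abemaciclib alone, the combination was lower for 7 genes (background 17.7% lower, 15.9% higher), and FZR1, UBE2S and SKP2 were not called. Compared with fulvestrant alone, it was lower for 5 genes, CDC20, UBE2C, FBXO5, PTTG1 and DTL. That comparison called few genes at all, 1.63% lower and 0.297% higher. These 227 genes became 124 in a fit of these 2 groups alone. Leaving out fulvestrant replicate 3 gave 588, and leaving out combination replicate 3 gave 146. Levels were higher with abemaciclib than with fulvestrant for 7 of the 10 (background 15.5% higher, 13.4% lower), and FZR1, UBE2S and SKP2 were not called. The plot of levels by library shows these steps for each gene.

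**Figure D1:**
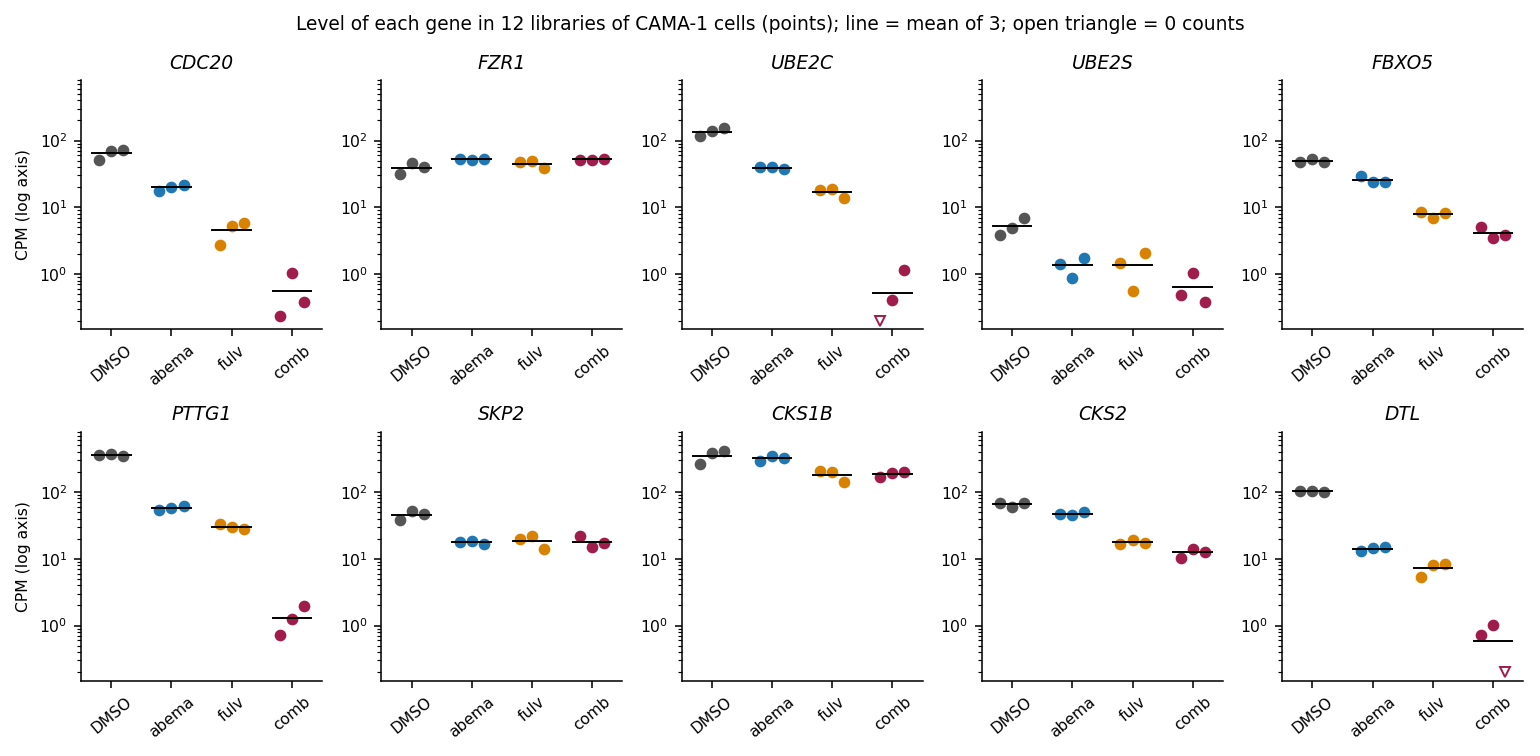
Level of each of the 10 genes in CPM (log axis) in the 12 libraries; points are libraries, lines are means of 3, and open triangles mark libraries with 0 counts, drawn at the bottom of the axis. Most genes step down from DMSO to the combination, FZR1 stays between 31.7 and 53.9 CPM, and SKP2 sits near 18 CPM under all 3 treatments.

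The APC/C coactivators moved apart. CDC20, which directs APC/C to securin and cyclin B in mitosis, measured 51.5, 70.7 and 71.9 CPM in the DMSO libraries. Abemaciclib libraries held 17.4, 20.5 and 21.7 CPM, fulvestrant libraries 2.71, 5.34 and 5.91 CPM, and combination libraries 0.240, 1.03 and 0.387 CPM. No value of any group overlapped that of another. The log2 fold change was -1.72 (SE 0.16, edgeR adjusted p = 2.55e-09) with abemaciclib and -3.80 (SE 0.21, adjusted p = 2.74e-14) with fulvestrant. With the combination it was -6.78 (SE 0.29, adjusted p = 8.17e-17), and 8 reads remained in 3 libraries against 896 in DMSO. Their depth-scaled ratio was 118-fold, with an exact 95% counting interval of 59.4 to 273. The edgeR interval, 72.4 to 167-fold, was narrower, so the SE understates the uncertainty where so few reads remain. Leaving out combination replicate 2, which holds 5 of the 8 reads, moved the log2 fold change to -7.54. The combination also lay below fulvestrant alone, by -2.99 (SE 0.49, adjusted p = 0.000196), which became -3.75 without that replicate.

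FZR1, the coactivator that keeps APC/C active through G1, measured 31.7, 45.7 and 40.6 CPM in DMSO. It held 53.9, 51.3 and 52.9 CPM with abemaciclib, 47.1, 48.9 and 38.4 CPM with fulvestrant, and 51.6, 51.5 and 53.4 CPM with the combination. Abemaciclib and combination libraries all lay above the DMSO libraries, while fulvestrant libraries overlapped them. The rise was small, at 0.41 on the log2 scale (SE 0.12, edgeR adjusted p = 0.00912) with abemaciclib and 0.39 (SE 0.12, adjusted p = 0.00772) with the combination. Both calls depended on DMSO replicate 1, the lowest library: without it they were 0.29 (adjusted p = 0.0679) and 0.27 (adjusted p = 0.0624). With fulvestrant the change was 0.17 (95% interval -0.09 to 0.42, adjusted p = 0.276). The last exon of FZR1 is 3540 bases long and shares 74 of them with MFSD12 on the opposite strand. Whether counting used strand is not stated, and MFSD12 measured 86.3 CPM in DMSO, 84.5 with abemaciclib, 64.6 with fulvestrant and 73.9 with the combination.

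Together these shifts changed the balance between the coactivators within every library. The log2 ratio of FZR1 to CDC20 was -0.71 ± 0.10 (SD, n = 3) in DMSO, 1.40 ± 0.19 with abemaciclib, 3.20 ± 0.66 with fulvestrant and 5.79 ± 0.58 with the combination. The groups did not overlap in any of the 6 pairs. The size of the ratio in the combination depends on the prior count added to the 8 CDC20 reads: the step was 6.50 from DMSO and 4.40 from abemaciclib with a prior of 2, and 7.20 and 5.07 with 0.5. With 3 libraries against 3, an exact two-sided permutation test cannot give a p below 0.1, the value reached in each pair (0.126 after Benjamini-Hochberg adjustment over 24 tests of 4 ratios).

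The sequences upstream of the 2 coactivator genes are shown as a description, and no link between their letters and the responses was tested. Both are the 150 bases before the RefSeq start on GRCh38.p14, plus strand, chr1:43358831-43358980 and chr19:3506161-3506310, with capitals marking the motif letters CCAAT and TTTGAA (the cell-cycle homology region, CHR, to which MuvB binds).
CDC20: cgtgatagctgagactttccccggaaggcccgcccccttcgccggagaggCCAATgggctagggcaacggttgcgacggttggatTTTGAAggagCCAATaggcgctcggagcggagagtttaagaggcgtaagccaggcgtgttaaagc
FZR1: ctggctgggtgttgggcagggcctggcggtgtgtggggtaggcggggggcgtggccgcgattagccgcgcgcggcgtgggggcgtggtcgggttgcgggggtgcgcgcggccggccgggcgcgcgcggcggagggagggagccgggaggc
CDC20 has a TTTGAA starting 65 bases before the start with a CCAAT on either side of it, at 100 and 55 bases, and a further CHR on the other strand (TTCAAA) at 178 bases, beyond this stretch. FZR1 has none of these letters in this stretch. Its only match was a TTTGAA farther out, 226 bases before the start. In GENCODE, CDC20 lies at chr1:43358981-43363203 with 11 exons and FZR1 at chr19:3506311-3538334 with 14, both on the plus strand, and these stretches lie outside the annotated bodies of both genes.

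Of the ubiquitin-conjugating enzymes of APC/C, UBE2C fell steeply and UBE2S was too sparse to follow below DMSO. UBE2C, which places the initial ubiquitins on APC/C substrates (chr20:45812576-45816957), measured 115, 138 and 156 CPM in DMSO, 40.7, 40.3 and 37.3 with abemaciclib, and 18.5, 19.1 and 13.6 with fulvestrant. In the combination libraries 0, 2 and 6 reads were counted, or 0, 0.412 and 1.16 CPM. The 4 groups did not overlap. The log2 fold changes were -1.79 (SE 0.14, edgeR adjusted p = 2.55e-10), -3.01 (SE 0.16, adjusted p = 8.12e-14) and -7.85 (SE 0.26, adjusted p = 1.04e-17). From 1872 reads in DMSO to 8 in the combination, the depth-scaled ratio was 246-fold (exact 95% counting interval 124 to 570). Without combination replicate 3, which holds 6 of the 8 reads, the value was -9.09. The combination was below fulvestrant alone by -4.84 (SE 0.37, adjusted p = 1.65e-09), or -6.09 without that replicate.

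UBE2S, which extends the ubiquitin chains that UBE2C begins (chr19:55399745-55407788), was sparse throughout, with 13, 26 and 34 reads in the DMSO libraries. These correspond to 3.85, 4.93 and 7.01 CPM, against 1.40, 0.880 and 1.76 CPM with abemaciclib, 1.48, 0.562 and 2.05 with fulvestrant, and 0.480, 1.03 and 0.387 with the combination. All treated libraries lay below all DMSO libraries, whereas the treated groups overlapped one another. The log2 fold changes against DMSO were -1.98 (SE 0.42), -1.91 (SE 0.43) and -3.02 (SE 0.49). They are given without a test, since UBE2S passed the filter in the 3 DMSO libraries and in 0 treated ones. The combination differed from abemaciclib by -1.04 (95% interval -2.34 to 0.27) and from fulvestrant by -1.12 (-2.43 to 0.20), and neither was called. With 9 reads in the whole combination group, smaller differences were not detectable at this depth. The log2 ratio of UBE2C to UBE2S was 4.61 ± 0.19 (SD, n = 3) in DMSO, 4.50 ± 0.42 with abemaciclib, 3.35 ± 0.89 with fulvestrant and -0.29 ± 1.08 with the combination. The combination did not overlap any other group (exact permutation p = 0.1 in each pair, the smallest possible). Its ratio compares 8 reads of UBE2C with 9 of UBE2S in the whole group, after a prior count of 2, so its size is uncertain.

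FBXO5 and PTTG1 act against the steps that APC/C drives. FBXO5, or EMI1, inhibits APC/C during S and G2 phase (chr6:152970519-152983579, minus strand). It measured 48.2, 53.6 and 47.6 CPM in DMSO, 29.1, 24.2 and 23.9 with abemaciclib, 8.38, 7.03 and 8.18 with fulvestrant, and 5.04, 3.50 and 3.87 with the combination. The groups fell in that order without overlap. The log2 fold change was -0.95 (SE 0.13, edgeR adjusted p = 1.44e-06) with abemaciclib, -2.66 (SE 0.16, adjusted p = 9.15e-14) with fulvestrant and -3.60 (SE 0.17, adjusted p = 4.82e-16) with the combination. The step from fulvestrant to the combination was -0.94 (SE 0.23, adjusted p = 0.0238). That call was lost when fulvestrant replicate 1 (adjusted p = 0.101), combination replicate 2 (0.129) or combination replicate 3 (0.113) was left out, and when only these 2 groups were fitted (0.183).

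PTTG1, or securin, holds the separase that parts sister chromatids in check until APC/C with CDC20 destroys it. Its DMSO libraries held 363, 376 and 345 CPM, abemaciclib libraries 54.3, 58.1 and 61.5, fulvestrant libraries 32.8, 30.4 and 27.7, and combination libraries 0.720, 1.24 and 1.94 CPM. These groups were separated at each step. PTTG1 had the lowest estimate of the 10 with the combination, with an interval that overlaps that of UBE2C, at -8.05 on the log2 scale (SE 0.16, edgeR adjusted p = 1.50e-24), after -2.64 (SE 0.09, adjusted p = 4.40e-18) with abemaciclib and -3.58 (SE 0.10, adjusted p = 2.53e-20) with fulvestrant. The 4883 reads of the DMSO group compared with 19 in the combination, a depth-scaled ratio of 270.0-fold (exact 95% counting interval 173 to 449). Without combination replicate 3 UBE2C exceeded it (-9.09). The 150 bases upstream of PTTG1 (chr5:160421705-160421854, GRCh38.p14, plus strand) are shown as those of the gene with this fall, with CCAAT in either orientation in capitals.
PTTG1: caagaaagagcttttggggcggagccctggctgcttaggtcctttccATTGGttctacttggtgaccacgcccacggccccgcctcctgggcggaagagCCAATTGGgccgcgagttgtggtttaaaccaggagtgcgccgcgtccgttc
PTTG1 has 3 CCAAT matches, at 103, 51 and 48 bases before the start, the last 2 on opposite strands and overlapping by 2 letters. PTTG1 lies at chr5:160421855-160428739 with 6 exons. Neither TTTGAA nor the E2F letters TTTNNCGC were found in the 250 bases before its start, and other spellings were not searched.

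In the SCF arm, SKP2, CKS1B and CKS2 fell less with the combination than CDC20, UBE2C, FBXO5 and PTTG1. These SCF genes did not move together. SKP2, the F-box protein that recognises the CDK inhibitor CDKN1B (chr5:36151989-36196849), measured 38.2, 51.3 and 46.8 CPM in DMSO. It then held 18.0, 18.7 and 16.4 CPM with abemaciclib, 19.95, 21.9 and 14.1 with fulvestrant, and 21.6, 15.3 and 17.4 with the combination. All treated libraries were below DMSO, and the 3 treated groups overlapped. Against DMSO the log2 fold changes were -1.37 (SE 0.16), -1.31 (SE 0.16) and -1.35 (SE 0.16), with edgeR adjusted p of 8.09e-08, 1.13e-07 and 3.95e-08. The combination differed from abemaciclib alone by 0.02 (95% interval -0.34 to 0.38) and from fulvestrant alone by -0.04 (-0.40 to 0.32).

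CKS1B, the small CDK-binding protein with which SKP2 recognises CDKN1B (chr1:154974653-154979251), held 260, 378 and 408 CPM in DMSO and 288, 346 and 325 CPM with abemaciclib. It held 205, 199.95 and 142 CPM with fulvestrant and 170, 191 and 199 CPM with the combination. Abemaciclib and DMSO libraries overlapped, and fulvestrant and combination libraries lay below both. The change with abemaciclib was -0.13 on the log2 scale (95% interval -0.53 to 0.26, edgeR adjusted p = 0.591). It was -0.94 (SE 0.18, adjusted p = 0.00151) with fulvestrant and -0.91 (SE 0.18, adjusted p = 0.00165) with the combination, and fulvestrant and combination differed by 0.04 (-0.37 to 0.45). Within libraries SKP2 and its cofactor shifted against each other with abemaciclib. The log2 ratio of SKP2 to CKS1B was -2.91 ± 0.18 (SD, n = 3) in DMSO, -4.14 ± 0.15 with abemaciclib, -3.26 ± 0.09 with fulvestrant and -3.35 ± 0.35 with the combination. The abemaciclib libraries were below those of every other group (exact permutation p = 0.1 in each pair, the smallest possible).

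CKS2, the paralogue of CKS1B that binds CDKs (chr9:89311195-89316703), fell further. Its libraries held 69.5, 59.7 and 68.4 CPM in DMSO, 47.5, 44.5 and 50.4 with abemaciclib, 16.5, 19.1 and 17.3 with fulvestrant, and 10.3, 14.2 and 12.8 with the combination. No groups overlapped. The log2 fold changes were -0.47 (SE 0.11, edgeR adjusted p = 0.0016), -1.90 (SE 0.13, adjusted p = 1.61e-12) and -2.39 (SE 0.13, adjusted p = 1.44e-14), whereas the step from fulvestrant to the combination, -0.49 (95% interval -0.81 to -0.17), was not called (adjusted p = 0.135). The log2 ratio of CKS2 to CKS1B went from -2.37 ± 0.41 (SD, n = 3) in DMSO to -2.74 ± 0.19 with abemaciclib, -3.32 ± 0.30 with fulvestrant and -3.87 ± 0.15 with the combination. DMSO and abemaciclib overlapped in this ratio, and the other pairs did not. The 150 bases upstream of CKS2 (chr9:89311045-89311194, GRCh38.p14, plus strand) are shown because they carry the same kinds of motif letters as CDC20, although CKS2 fell less.
CKS2: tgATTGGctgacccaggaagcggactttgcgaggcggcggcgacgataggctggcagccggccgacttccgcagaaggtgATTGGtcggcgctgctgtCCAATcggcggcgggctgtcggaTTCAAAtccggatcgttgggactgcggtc
Capitals mark 3 CCAAT in either orientation and a CHR on the other strand (TTCAAA), which begins 29 bases before the start.

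**Figure D2:**
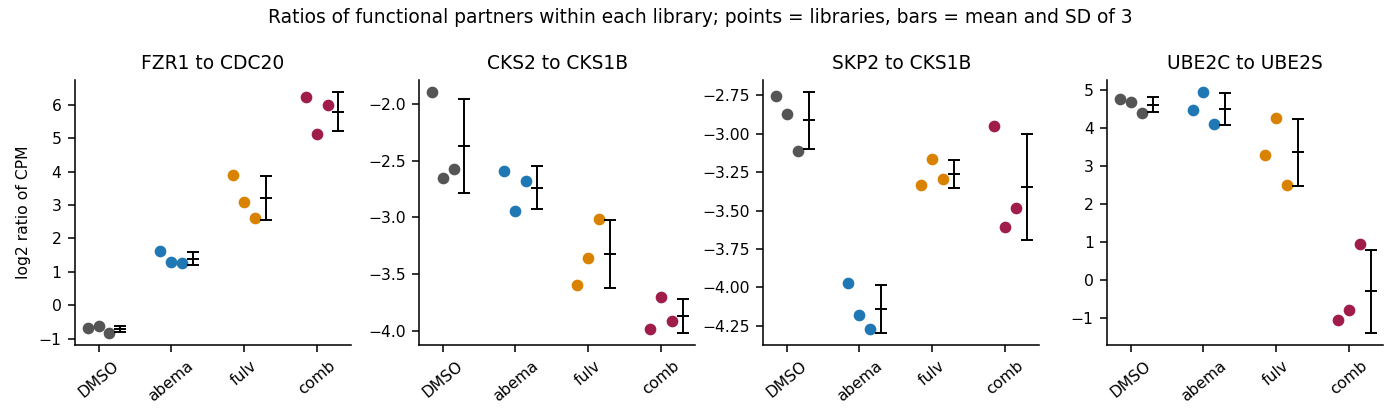
Log2 ratio of CPM between functional partners in each of the 12 libraries; points are libraries and bars are the mean and SD of 3. FZR1 to CDC20 climbs from -0.71 in DMSO to 5.79 in the combination, UBE2C to UBE2S goes from 4.61 to -0.29, and SKP2 to CKS1B is lowest with abemaciclib. In the combination CDC20, UBE2C and UBE2S held few reads, so the size of their ratios depends on the prior count.

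DTL, the substrate receptor that brings CDT1, CDKN1A and KMT5A to the CUL4 ligase when they are bound to PCNA (chr1:212035553-212107400), had the lowest estimate of the 10 with abemaciclib, with an interval that overlaps that of PTTG1. Its libraries held 104, 103 and 100 CPM in DMSO, 13.0, 14.5 and 14.9 with abemaciclib, 5.42, 8.16 and 8.41 with fulvestrant, and 0.720, 1.03 and 0 with the combination. The groups did not overlap. Its change on the log2 scale was -2.86 (SE 0.15, edgeR adjusted p = 1.99e-14) with abemaciclib, -3.80 (SE 0.17, adjusted p = 2.30e-16) with fulvestrant and -7.43 (SE 0.26, adjusted p = 2.56e-19) with the combination. The 8 reads of the combination against 1383 in DMSO gave a depth-scaled ratio of 181-fold (exact 95% counting interval 91.9 to 421). Leaving out combination replicate 2 gave -8.19 and leaving out replicate 3, with 0 reads, gave -6.80. Against fulvestrant alone the combination was lower by -3.63 (SE 0.41, adjusted p = 4.54e-07), or -4.40 and -3.01 without those replicates.

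Whether the drugs together did more or less than the sum of their separate log2 changes was tested as an interaction. UBE2C fell further than that sum, by -3.05 (SE 0.46, edgeR adjusted p = 2.69e-05), as did PTTG1, by -1.83 (SE 0.27, adjusted p = 1.07e-05). SKP2 went the other way, with an interaction of 1.33 (SE 0.24, adjusted p = 0.000185), its mean being 17.7 CPM with abemaciclib, 18.7 with fulvestrant and 18.1 with the combination, from 45.4 in DMSO. Without combination replicate 3 the UBE2C value was -4.30. Over all genes, 11.6% had a lower and 9.45% a higher interaction. The split of these calls moved with the scaling, from 44.8% positive to 61.3% positive with total counts only, and the 3 calls named here stood under both. For CDC20 the value was -1.26 (95% interval -2.43 to -0.10, adjusted p = 0.0969). It passed the threshold without fulvestrant replicate 1 (-1.55, adjusted p = 0.0393) or combination replicate 2 (-2.03, adjusted p = 0.0467). The values of FBXO5 (0.01, -0.54 to 0.56) and CKS2 (-0.02, -0.42 to 0.38) lay close to additivity on the log2 scale. The intervals of DTL (-0.77, -1.86 to 0.32) and UBE2S (0.87, -0.79 to 2.52) were wide. As the labels do not restate the doses in the combination, a difference in dose cannot be told apart from an interaction.

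**Figure D3:**
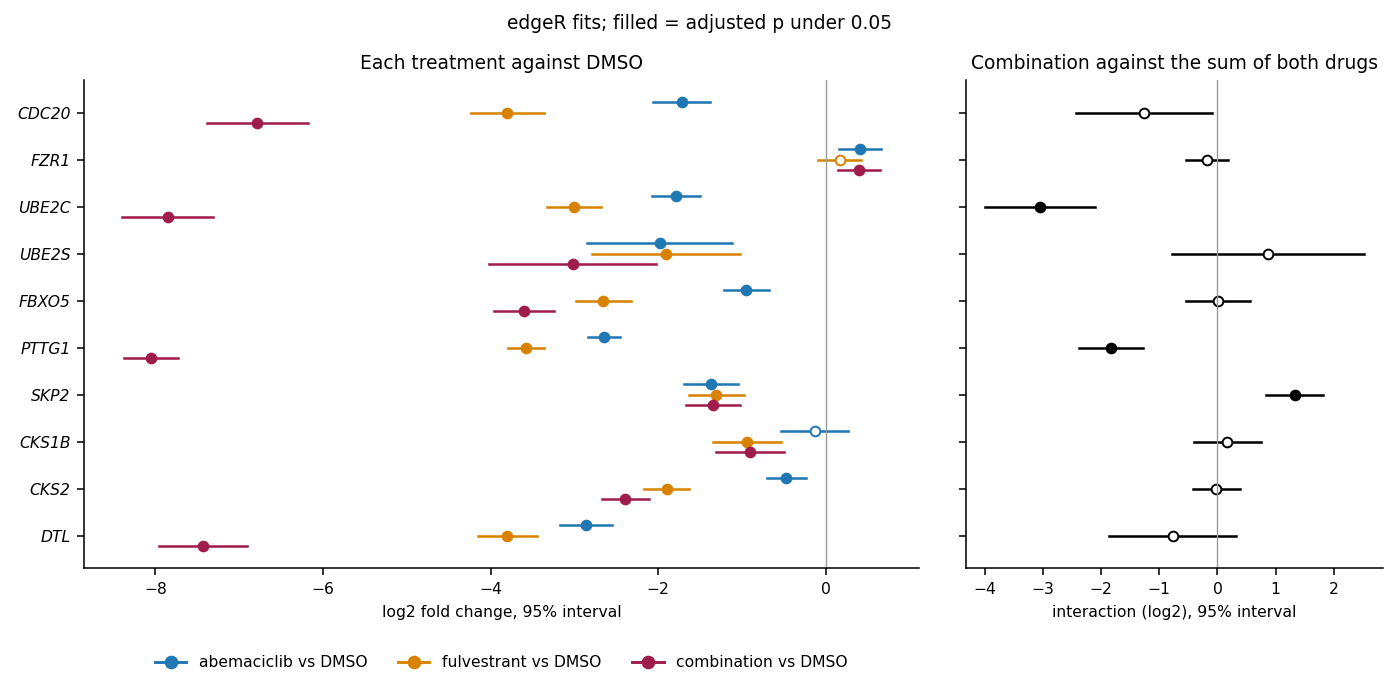
Left, log2 fold change of each gene against DMSO with its 95% interval for abemaciclib, fulvestrant and the combination; right, the interaction on the log2 scale. Filled points passed an adjusted p of 0.05: CDC20, UBE2C, PTTG1 and DTL lie below -6 with the combination, and only UBE2C, PTTG1 and SKP2 have filled interactions. For CDC20, UBE2C, PTTG1 and DTL with the combination, the intervals drawn are narrower than the exact counting intervals. UBE2S passed the low-count filter only through its DMSO libraries, so its points against DMSO are a description only.

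The core subunits of APC/C, which hold the catalytic centre and the substrate docking sites, changed less than CDC20 and UBE2C. The gene lists were chosen with earlier results of these data known, so the counts below are descriptions. They are read against all genes tested, of which 20.7% were called lower and 20.5% higher with abemaciclib. The shares were 25.7% and 25.3% with fulvestrant, and 27.5% and 27.7% with the combination. Of 12 tested core subunits 5 fell and 1 rose with abemaciclib, with a median log2 fold change of -0.15, and 7 fell and 2 rose with fulvestrant, with a median of -0.42. In the combination 6 fell and 2 rose, with a median of -0.36. ANAPC15, which helps to release checkpoint proteins from the complex, had the largest fall, -1.44 (SE 0.21, edgeR adjusted p = 2.17e-06) with the combination, and ANAPC10, which takes part in recognising substrates, was next at -0.93 (SE 0.29, adjusted p = 0.0082). ANAPC16 at 0.49 (SE 0.10, adjusted p = 0.000114) and ANAPC13 at 0.47 (SE 0.13, adjusted p = 0.0029) were higher. ANAPC2 and CDC26 did not pass the filter. With abemaciclib the leading changes were ANAPC10 (-0.94), ANAPC15 (-0.73) and ANAPC13 (0.52), and with fulvestrant ANAPC15 (-1.04), ANAPC10 (-0.84), ANAPC13 (0.49) and ANAPC16 (0.39).

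Genes around the complex fell much further. Of 5 mitotic checkpoint genes, whose products restrain CDC20 or recycle its inhibitor, 3 fell with abemaciclib, 4 with fulvestrant and 4 with the combination (median -4.39), where TRIP13 (-5.64, SE 0.38, edgeR adjusted p = 4.92e-12) and BUB1B (-5.61, SE 0.21, adjusted p = 1.84e-18) led, with 8 and 18 reads left in the combination group. The medians with the single drugs were -0.47 and -3.12, led by BUB1B (-1.58) and MAD2L1 (-1.55) with abemaciclib and by TRIP13 (-3.59) and MAD2L1 (-3.24) with fulvestrant. With the combination BUB3, which also acts outside the checkpoint, changed by only -0.37 (adjusted p = 0.000313), and MAD2L1BP was not called (-0.21, adjusted p = 0.582). Of the transcripts that encode APC/C substrates, all 15 tested were lower in each of the 3 comparisons with DMSO, with medians of -1.96, -3.38 and -6.23. RRM2, a subunit of ribonucleotide reductase, and CCNA2, or cyclin A, had the lowest fitted log2 fold changes in the combination, -10.3 (SE 0.23, adjusted p = 8.82e-24) and -9.12 (SE 0.28, adjusted p = 1.65e-20). Each rests on 2 reads in the whole combination group, against 2908 and 1267 in DMSO. The depth-scaled ratios were 1527-fold (exact 95% counting interval 422 to 12611) and 665-fold (184 to 5498), too wide to rank them among the 15. CCNA2 and RRM2 also led with abemaciclib (-3.48 and -3.38) and with fulvestrant (-3.74 and -3.71). These are transcript levels, and protein levels were not analysed here.

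The medians of the SCF core and neddylation genes lay near 0. Of 11, 2 fell and 1 rose with abemaciclib (median -0.05), 5 fell and 1 rose with fulvestrant (-0.17), and 3 fell and 1 rose with the combination (-0.11). Among all genes 20.7%, 25.7% and 27.5% were called lower in these comparisons. The fall was led by UBE2M, the enzyme that transfers NEDD8 to cullins, at -1.12 (SE 0.11, edgeR adjusted p = 3.70e-09), and CUL1, the SCF scaffold, at -0.54 (SE 0.10, adjusted p = 4.86e-05), while the adaptor SKP1 was higher by 0.45 (SE 0.07, adjusted p = 5.31e-06). The same 3 genes led with abemaciclib (UBE2M -0.69, CUL1 -0.43, SKP1 0.26) and with fulvestrant (UBE2M -1.04, CUL1 -0.55, SKP1 0.31). Of 10 other F-box genes, 4 rose and 1 fell with the combination (median 0.21), against 27.7% higher and 27.5% lower among all genes. Here CCNF, or cyclin F, which is itself a cell-cycle regulated F-box protein, fell by 1.52 (SE 0.12, adjusted p = 4.21e-11), while FBXO4 (0.88, SE 0.17, adjusted p = 8.65e-05) and FBXW4 (0.81, SE 0.16, adjusted p = 0.000103) rose. With abemaciclib CCNF (-1.67) and FBXW7 (-0.48) fell and FBXW4 (0.44) rose, with a median of 0.09 over the 10. With fulvestrant CCNF (-1.57) fell and 4 rose, led by FBXW4 (0.76) and FBXO4 (0.75), with a median of 0.23. The level of CCNF, like that of SKP2, was similar under the 3 treatments, at 64.7 CPM in DMSO and 20.3, 21.8 and 22.6 CPM after abemaciclib, fulvestrant and both, with an interaction of 1.72 (SE 0.19, adjusted p = 2.08e-07).

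On the CUL4 side, PCNA, the sliding clamp on which DTL finds its substrates, fell by 2.93 (SE 0.12, edgeR adjusted p = 6.81e-18) with the combination. It was the single one of the 6 genes on the CUL4 list that was called lower. Among all genes 27.5% were called lower and 27.7% higher with the combination, 20.7% and 20.5% with abemaciclib, and 25.7% and 25.3% with fulvestrant. CUL4B (0.61, SE 0.14, adjusted p = 0.000933) and DCAF11 (0.29, SE 0.11, adjusted p = 0.0357) were called higher, and the median of the 6 was 0.09. With abemaciclib only PCNA was called (-2.37, median of the list 0.03, or -0.03 with total counts only), and with fulvestrant PCNA fell (-2.20) while CUL4B (0.52) and DCAF11 (0.37) rose (median 0.07). Transcripts of SKP2 and DTL substrates split. CDKN1A, which encodes a CDK inhibitor, rose from 15.2 ± 1.39 CPM (SD, n = 3) in DMSO to 46.2 ± 1.69 with abemaciclib, 132 ± 10.1 with fulvestrant and 115 ± 4.24 with the combination, where its log2 fold change reached 2.91 (SE 0.11, adjusted p = 2.12e-18). CDT1, the licensing factor, fell by 5.59 (SE 0.18, adjusted p = 5.40e-20), and CDKN1C, another CDK inhibitor, by 1.45 (SE 0.31, adjusted p = 0.0003). CDKN1B, the substrate of SKP2, was modestly lower at -0.36 (adjusted p = 0.0058). Of the 6 genes 4 fell and 1 rose with the combination, with a median of -0.87. With abemaciclib 4 fell, led by CDT1 (-2.52) and CDKN1C (-1.34), and CDKN1A rose (1.59), for a median of -0.70. With fulvestrant 3 fell, led by CDT1 (-3.82) and KMT5A (-1.45), and CDKN1A rose (3.10), for a median of -0.36.

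**Figure D4:**
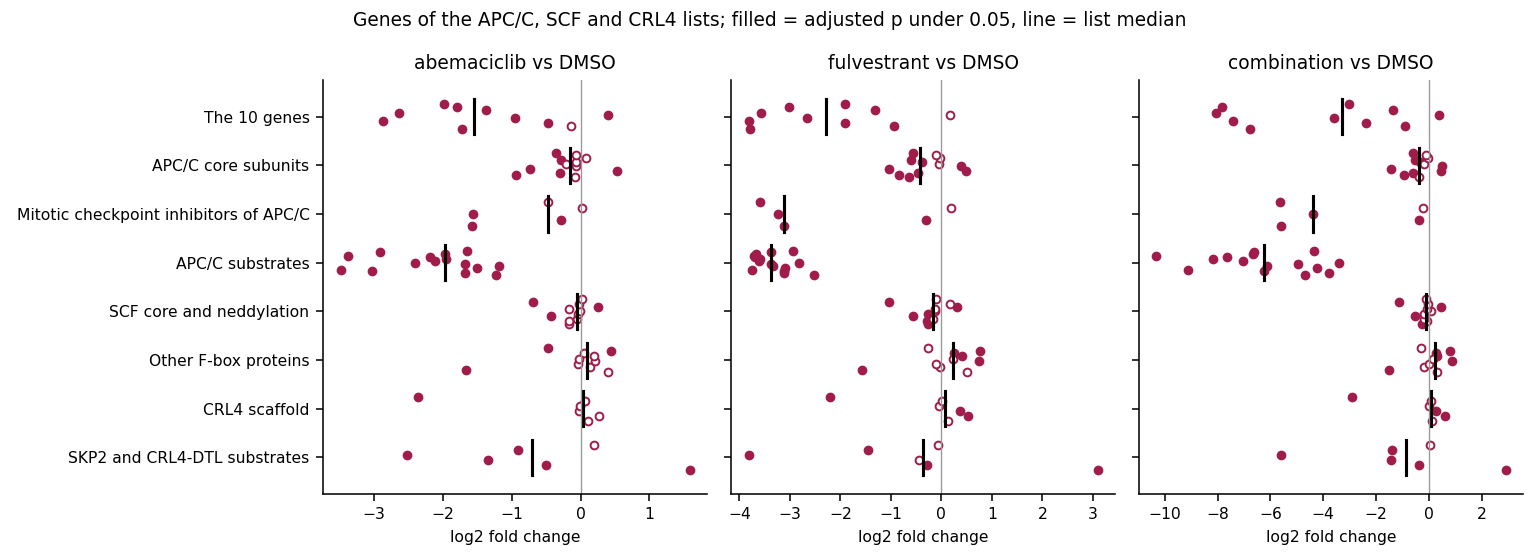
Log2 fold change against DMSO of the 10 genes and of 7 lists of related genes; points are genes, filled where the adjusted p was under 0.05, and black lines are list medians. In the combination, APC/C substrates (median -6.23) and checkpoint genes (-4.39) lie far to the left, whereas core subunits of APC/C (-0.36) and SCF (-0.11) lie near 0.

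The letters of 3 cell-cycle motifs were counted in the 250 bases before the RefSeq start of each gene, on both strands: TTTGAA (CHR), TTTNNCGC (E2F) and CCAAT. RefSeq promoter sequences on GRCh38.p14 were matched for 9 of the 10 genes, all but UBE2C, and for 27305 genes in all. A CHR match was present in 4 of the 9 (CDC20, FZR1, CKS1B and CKS2), against 13.6% of all promoters and 7.9% of the 8986 matched promoters of tested genes. E2F letters were found in DTL alone, ending at the base before the RefSeq start, against 5.9% and 9.5%. CCAAT was found in 6 of the 9, CDC20, UBE2S, PTTG1, CKS1B, CKS2 and DTL, against 33.0% and 36.1%. Neither SKP2 nor FBXO5 held any of the 3. GENCODE places the starts of DTL, CKS1B and SKP2 upstream of those in RefSeq, so the windows of these genes lie partly inside the annotated gene. Matches and responses differed from gene to gene. CKS1B carries a TTTGAA 30 bases before the RefSeq start and 5 CCAAT, and changed by -0.91 with the combination. PTTG1, where CCAAT was the only match to the 3 spellings, changed by -8.05. Other spellings of these motifs were not searched. A match is only a match of letters. Binding was not measured in these libraries, and no link between matches and responses was tested.

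**Figure D5:**
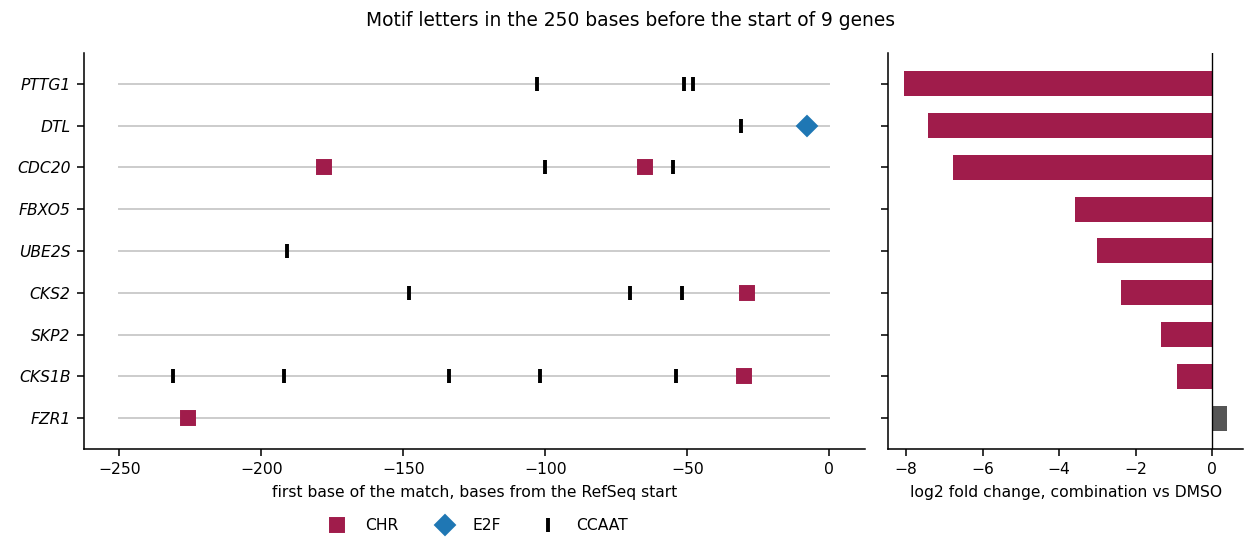
Left, position of each CHR, E2F and CCAAT match in the 250 bases before the start of 9 genes, in bases from the RefSeq start; right, log2 fold change of the same gene with the combination against DMSO (bars from 0). Genes are ordered by their fall, from PTTG1 (-8.05) to FZR1 (0.39), and CHR matches are marked in CDC20, CKS2, CKS1B and FZR1.

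The treatment profile of each gene, taken as its mean log2 CPM in the 4 groups after centring, was compared with those of 8904 other well-expressed genes by the root mean square difference (RMS, in log2 units over the 4 group means). CDC20 was closest to SGO1 (RMS 0.10), the protector of centromeric cohesion, followed by CCNB2 (0.19) and PKMYT1 (0.20). UBE2C was closest to KIF4A (0.24), BIRC5 (0.27) and CKAP2L (0.30), and PTTG1 to CKAP2L (0.05), BIRC5 (0.15) and MCM10 (0.17). DTL lay near KIFC1 (0.23), CDK1 (0.24) and NUF2 (0.27), FBXO5 near KIF20B (0.11), OIP5 (0.15) and CENPW (0.15), and CKS2 near AUNIP (0.06), PARPBP (0.06) and POC1A (0.10). The sparse UBE2S was nearest to WDHD1 (0.04), SH3BP1 (0.10) and CDCA7L (0.10).

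Flatter profiles had other neighbours. SKP2 was nearest to UNG (0.04), the uracil glycosylase of DNA repair, SMC3 (0.04), a cohesin subunit, and PTMA (0.05). CKS1B lay nearest to SNHG29 (0.03), TLCD1 (0.03) and SCD (0.03), and FZR1 to KATNAL1 (0.01), TYSND1 (0.01) and SLC7A6 (0.02). A profile with small changes lies close to many genes by construction, so RMS values are not comparable between flat and steep profiles. Among the 10 genes themselves UBE2C and PTTG1 were the closest pair (RMS 0.31) and FZR1 and PTTG1 the farthest apart (2.92).

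Near-identical copies could share reads with some of these genes. CDC20P1, a processed copy of CDC20, held 77 reads over the 12 libraries, with at most 27 in a library, and UBE2SP2 held 16, with at most 5. Other copies of CDC20, UBE2C, UBE2S, PTTG1 and CKS1B in the table held 2 reads or fewer each.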

How the data were processed

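The data are 3′ RNA-seq of polyadenylated RNA (QuantSeq FWD, single-end) from 12 CAMA-1 libraries. The authors trimmed and aligned reads to GRCh38 with STAR, counted them per gene with featureCounts 2.0.1 on a GENCODE annotation, and deposited raw counts per gene symbol. Whether counting used strand is not stated, and no molecular identifiers are named. The exact counting intervals and the floors cover counting error only. A count from the 3′ end depends little on transcript length. The 44 rows with no name (0 reads) were left out.

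Tests used edgeR 4.0.16 in R 4.3.3 (filterByExpr by group, minimum count 10, minimum total 15, TMM factors, robust quasi-likelihood F tests) in 1 model of 4 group means over all 12 libraries, with Benjamini-Hochberg adjustment over 11803 genes and a threshold of 0.05. Standard errors come from the F statistic, and intervals are at 95%. Where few reads remain they can be too small. With the combination against DMSO, the intervals of CDC20, UBE2C, PTTG1 and DTL were narrower than their exact counting intervals. For UBE2C they were 158 to 338-fold against 124 to 570-fold. Within-library ratios are log2 CPM differences with a prior count of 2, compared by exact two-sided permutation. Low counts were compared as pooled reads with an exact conditional (binomial) interval. The model was tested on simulated data. Alternatives were DESeq2 1.42.0, other scalings, no filter, the replicate number as a block, only the groups compared, and each library left out; for ratios the prior count was also set to 0.5.

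The 10 genes and all lists were chosen with earlier results of these data known. All 10 genes are reported in every library; of each list, counts, the median and up to 2 called genes in each direction with the largest change, for the comparisons with DMSO; and for each gene the 3 nearest profiles among genes with an average log2 CPM of at least 3. BUB3, MAD2L1BP, CDKN1B and the levels of CCNF were named after their values were seen. Coordinates are from GENCODE on GRCh38. Promoters are RefSeq sequences, the entry listed first for each gene on a primary chromosome. Same-numbered libraries did not deviate together (correlations of deviations from group means -0.21 to 0.12, 2 of 18 above 0.1). Between libraries with different numbers, DMSO replicate 1 and fulvestrant replicate 3 had a correlation of 0.30, and its source was not tested. No replicate pair agreed within sampling noise (lowest chi-square per degree of freedom 1.88).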

Additional observations from a re-analysis of the deposited data

Results flagged for a closer look

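In 3 of the 10 genes the combination departed from the sum of the separate log2 changes. The test was edgeR's interaction over all 11803 genes. Over all genes 11.6% were called lower and 9.45% higher in that test, so 3 of 10 is not far from the background and is no result about the genes as a group. UBE2C had an interaction of -3.05 on the log2 scale (SE 0.46, adjusted p = 2.69e-05), PTTG1 of -1.83 (SE 0.27, adjusted p = 1.07e-05) and SKP2 of 1.33 (SE 0.24, adjusted p = 0.000185). Over the alternatives the adjusted p reached at most 0.000704 for UBE2C, 0.00019 for PTTG1 and 0.00149 for SKP2. In UBE2C and PTTG1 the combination libraries held 0 to 10 reads each, so their size rests on few reads. The doses in the combination are not restated in the labels, so a dose difference cannot be told apart from an interaction.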

How the results depend on the processing

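Of the 7 counts of members called, all stayed within 1.5 times under the alternatives run. Leaving out each library gave 8 to 9 for abemaciclib, 9 to 9 for fulvestrant and 9 to 10 for the combination against DMSO. These counts against DMSO include UBE2S. Genes called between combination and fulvestrant, 227 in all, became 124 with only these groups fitted and 146 to 588 with each library left out (146 without combination replicate 3, 588 without fulvestrant replicate 3). The replicate block gave 1 new member call, the interaction of CDC20 (-1.30, adjusted p = 0.0491), and lost none of 70; same-numbered libraries share only a number. With a prior count of 0.5 the log2 ratio of FZR1 to CDC20 rose by 7.20 from DMSO and by 5.07 from abemaciclib to the combination. DESeq2 and RLE factors changed no member call. Signs turned only in values near 0 that were never called. With total counts only these were FZR1 (0.0382, combination against abemaciclib), SKP2 (0.00488, combination against fulvestrant) and CKS2 (0.0926, interaction); FBXO5's interaction was -0.00781 with upper-quartile factors and -0.00701 without the filter. With each library left out, ranges crossing 0 were -0.30 to 0.000483 for CKS1B with abemaciclib, -0.15 to 0.11 and -0.13 to 0.0816 for the interactions of FBXO5 and CKS2, -0.0340 to 0.00246 for FZR1 and -0.11 to 0.13 for SKP2 between combination and abemaciclib, -0.40 to 0.34 for UBE2S and -0.24 to 0.0646 for SKP2 between abemaciclib and fulvestrant, and -0.22 to 0.0849 for SKP2 and -0.12 to 0.13 for CKS1B between combination and fulvestrant. The cause of these shifts was not tested. Depth limits UBE2S throughout and CDC20, UBE2C, PTTG1 and DTL in the combination.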
